A study of Mus musculus with 4 samples.

Results

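Expression of *Ggt1* and of 9 further genes of the glutathione cycle was followed in *in vitro* MDSCs from cultures that did or did not receive G-CSF. The 10 genes were chosen by symbol, as enzymes that make, recycle, use or break down glutathione, and all 10 were found among the 24346 gene names of each library. They were *Ggt1*, *Ggt5*, *Dpep2*, *Chac2* and *Lap3* for breakdown, *Gclc*, *Gclm* and *Gss* for synthesis, and *Gsr* and *Gpx1* for recycling and use. BM cells of female C57BL/6J mice aged 6 to 8 weeks were cultured for 4 days with 40 ng/ml GM-CSF alone (Control, 2 libraries), or with the same GM-CSF plus G-CSF at 5 ng/ml (G-CSF, 2 libraries). GM-CSF was thus present in every culture. The comparison asks which genes G-CSF changes in these cells. Each library was made from a whole culture and not from a sorted subset, as far as the study states, so fewer cells of a type and less RNA per cell cannot be told apart.

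Glutathione is a tripeptide of glutamate, cysteine and glycine and the most abundant small thiol of most cells. It is made in the cytosol by glutamate-cysteine ligase and glutathione synthetase, spent by glutathione peroxidases against peroxides, and returned to its reduced form by glutathione reductase with NADPH. Exported glutathione is opened at the cell surface by gamma-glutamyltransferase, which releases glutamate, and dipeptidases then split cysteinylglycine so that cysteine and glycine can be taken up again. Myeloid cells rely on this cycle during the oxidative burst, and the same surface enzymes convert the glutathione conjugate leukotriene C4 into leukotrienes D4 and E4.

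The deposited values were FPKM, fragments scaled to transcript length and to the reads of the library. They can be set side by side for different genes within a library. Between libraries they share no fixed total, since FPKM summed to 670354 and 641610 in Control and to 642377 and 644939 with G-CSF. The main fit added no further scaling. From the steps that single reads leave in the lowest values, the libraries held about 12450000 to 15700000 reads. Differences were tested with limma on log2(FPKM + 0.1) over 11969 genes, and a gene passed at a Benjamini-Hochberg adjusted p under 0.05. Of all genes tested, 24.0% passed in either direction, 12.6% higher and 11.4% lower with G-CSF, and 1.43% also had a fold change over 2, the threshold of the study. The myeloid genes *Itgam*, *Ptprc* and *Spi1* summed to 1018 and 1030 FPKM in Control and to 806.9 and 869.8 FPKM with G-CSF. A sample label speaks of liver as the source of the RNA, and of 7 liver markers *Alb*, *Apoa1*, *Ttr*, *Cyp3a11* and *Fgb* were listed at 0 in every library, with a sum over all 7 of at most 0.169 FPKM. *Ly6g* was not found among the gene names read here, and so was not analysed.

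Of the 10 genes, 1 rose and 2 fell with G-CSF, and the other 7 did not pass. These 3 of 10 stand beside the 24.0% of all genes tested. *Ggt1* was the gene that rose, and it alone of the 10 had a fold change over 2 (0.535% of all genes tested did so upward and 0.894% downward). *Dpep2* and *Gsr* fell by less. Without Control replicate 1, or without the filter on low values, 1 of the 10 genes passed (*Ggt1*). In 8 of the 10 genes the values of the groups did not overlap, which was also so for 66.2% of all genes tested (32.6% with the lower values in G-CSF). The median log2 fold change of the 10 genes was -0.047, and that of all genes tested was 0.0011.

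**Figure D1:**
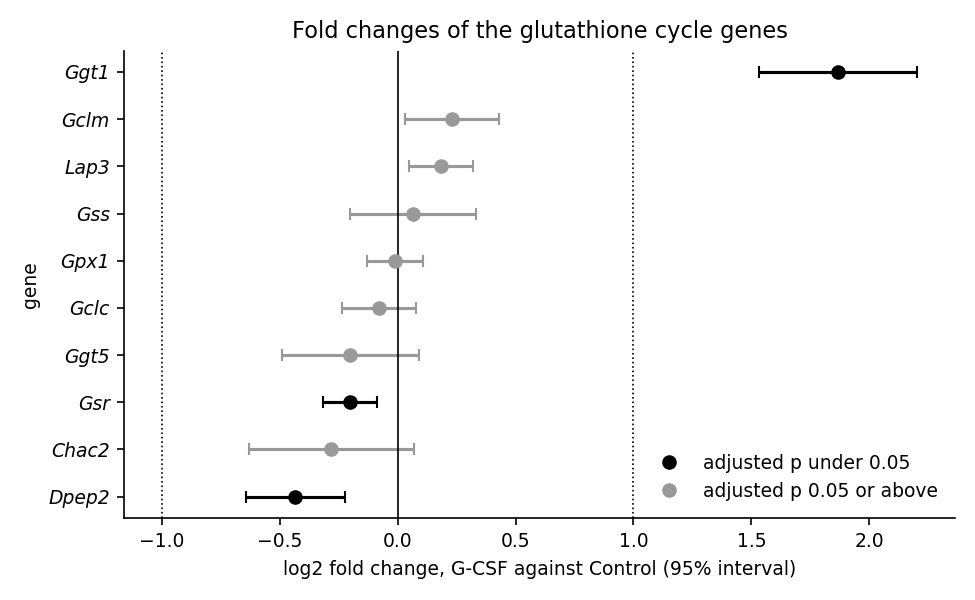
Log2 fold change of each gene between G-CSF and Control with its 95% interval from limma, with dotted lines at a fold change of 2 in either direction. *Ggt1* lies at 1.87, beyond the dotted line, and the other 9 genes lie between -0.43 and 0.23.

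*Ggt1* encodes gamma-glutamyltransferase 1, the surface enzyme that removes the glutamate residue from extracellular glutathione. Its FPKM was 1.17 in Control replicate 1, 1.29 in Control replicate 2, 4.48 in G-CSF replicate 1 and 5.01 in G-CSF replicate 2. Both G-CSF libraries were well above both Control libraries, and within each group the libraries lay close together, at 1.23 ± 0.0856 and 4.74 ± 0.372 FPKM (SD, n = 2 each). The log2 fold change was 1.87 (95% interval 1.53 to 2.2, adjusted p = 0.00168), a 3.65-fold rise. It stood at rank 39 of the 11969 genes tested by p. The values rest on an estimated 30 and 36 reads in Control and 108 and 153 reads with G-CSF. Leaving out any 1 library gave a log2 fold change of 1.79 to 1.95 and an adjusted p of at most 0.00609.

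*Ggt1* is a gene of the plus strand of chromosome 10 (75561604 to 75586200, GRCm38). The RefSeq table holds windows before 4 of its start sites, and the FPKM of the gene sums the transcripts from all of them, so that the start used in these cells was not read out. The bases before each of these starts are shown because they lie next to transcript starts of the gene that rose. All 4 windows lie within the span of the gene, downstream of its first annotated base, and the bases before that base are not shown. The window before the start of *Gclm* is set beside them, because *Gclm* is a well-known target of the transcription factor NRF2, which binds antioxidant response elements. Windows of 250 bases were searched on both strands for the core of that element, TGACNNNGC, which is in capitals. The sequences are from RefSeq (GRCm38.p6), 5′ to 3′, and a window that ran more than 30 bases into an annotated exon of the gene is printed up to that exon.
*Ggt1*, chr10:75563882-75564131, plus strand: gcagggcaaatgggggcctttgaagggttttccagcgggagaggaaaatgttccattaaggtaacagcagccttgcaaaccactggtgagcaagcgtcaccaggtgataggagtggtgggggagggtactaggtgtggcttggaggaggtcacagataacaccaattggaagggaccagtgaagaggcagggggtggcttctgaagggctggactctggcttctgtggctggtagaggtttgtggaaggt
*Ggt1*, chr10:75568412-75568661, plus strand: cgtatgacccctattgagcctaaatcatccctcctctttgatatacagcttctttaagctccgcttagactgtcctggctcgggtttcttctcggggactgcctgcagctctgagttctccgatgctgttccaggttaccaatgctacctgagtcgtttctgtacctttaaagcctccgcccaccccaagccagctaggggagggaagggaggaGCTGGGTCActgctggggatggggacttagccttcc
*Ggt1*, chr10:75571310-75571525, plus strand: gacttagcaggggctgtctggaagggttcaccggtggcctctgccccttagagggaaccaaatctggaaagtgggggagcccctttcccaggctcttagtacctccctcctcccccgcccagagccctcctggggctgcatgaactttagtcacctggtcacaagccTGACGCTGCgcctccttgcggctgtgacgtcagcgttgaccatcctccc
*Ggt1*, chr10:75573245-75573447, plus strand: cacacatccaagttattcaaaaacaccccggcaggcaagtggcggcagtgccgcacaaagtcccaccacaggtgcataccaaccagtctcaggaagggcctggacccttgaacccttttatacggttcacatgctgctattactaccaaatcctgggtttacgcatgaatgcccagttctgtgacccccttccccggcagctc
*Gclm*, chr3:122245307-122245556, plus strand: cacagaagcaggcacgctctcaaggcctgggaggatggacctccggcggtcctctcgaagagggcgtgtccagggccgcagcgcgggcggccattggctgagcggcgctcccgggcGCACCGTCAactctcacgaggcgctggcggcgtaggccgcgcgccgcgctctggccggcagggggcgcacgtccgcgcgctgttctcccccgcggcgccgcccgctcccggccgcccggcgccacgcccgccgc
The core was found in 2 of the 4 windows of *Ggt1* and in that of *Gclm*, with its first base on the printed strand 36 and 83 bases before the start in *Ggt1* and 134 bases before it in *Gclm*. Across the 9 windows found for 6 of the 10 genes, only these 3 held the core, and those of *Gss*, *Lap3*, *Gpx1* and *Chac2* did not. Of 32851 windows of this length before RefSeq starts, 10.2% hold it. A STAT motif, TTCNNNGAA, stood in 0 of the 9 windows found for 6 of the 10 genes and in 7.0% of all windows. A match is a run of letters only, and the RNA values do not show whether a factor binds there.

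*Ggt5* encodes the related enzyme gamma-glutamyltransferase 5, which acts on leukotriene C4, and follows *Ggt1* on the same strand (75589340 to 75617200). The 2 Control libraries had 3.57 and 3.77 FPKM, and those with G-CSF had 3.004 and 3.354 FPKM. Both G-CSF values were the lower ones, but the log2 fold change of -0.20 did not pass (95% interval -0.49 to 0.089, adjusted p = 0.265). Within a library, the level of *Ggt1* was 0.326 and 0.341 times that of *Ggt5* in Control and 1.49 times that of *Ggt5* in each G-CSF library. The order of the neighbouring family members was thus the opposite in the groups. None of the 75-base stretches of their transcripts, the length of a read, occurred in another gene of the annotation. The other family members were low: all 4 values of *Ggt6* were listed at 0, and *Ggt7* had at most 0.186 FPKM.

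*Dpep2* encodes a membrane dipeptidase of myeloid cells that cleaves cysteinylglycine and leukotriene D4, the step after gamma-glutamyltransferase. It stood at 85.7 and 77.5 FPKM in Control, against 65.5 and 55.5 FPKM with G-CSF. Every G-CSF value was below every Control value, and *Dpep2* fell by 0.43 on the log2 scale (95% interval -0.65 to -0.22, adjusted p = 0.0179). The enzymes of consecutive steps therefore differed in opposite directions, with *Ggt1* higher and *Dpep2* lower. The level of *Dpep2* was still the higher of the pair in every library. Without Control replicate 1 the adjusted p of *Dpep2* was 0.0546, and without a filter on low values it was 0.0593. The annotation gives the symbol to 2 overlapping genes on the minus strand of chromosome 8 (from 105984944), and 4.4% of its transcript stretches also occur in *Dpep2nb* or another gene on the same strand, and 8.0% on the opposite strand.

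*Chac2* and *Lap3* act within the cell. *Chac2* encodes a gamma-glutamylcyclotransferase that degrades cytosolic glutathione slowly, and stood at 4.87 and 4.33 FPKM in Control and at 3.34 and 4.23 FPKM with G-CSF. The lower Control value and the higher G-CSF value were close to each other, and the log2 fold change of -0.28 did not pass (95% interval -0.63 to 0.067, adjusted p = 0.202). *Lap3* encodes a leucine aminopeptidase that can also split cysteinylglycine, and stood at 25.7 and 26.9 FPKM in Control and at 29.2 and 30.5 FPKM with G-CSF. Its G-CSF values were both above its Control values. The log2 fold change of 0.18 had an interval above 0 (0.046 to 0.32), but the p adjusted over all genes was 0.0608.

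Glutamate-cysteine ligase, the rate-limiting enzyme of synthesis, joins a catalytic subunit (*Gclc*) and a modifier subunit (*Gclm*) that raises its activity. *Gclc* stood at 15.7 and 16.3 FPKM in Control and at 14.8 and 15.5 FPKM with G-CSF, and its log2 fold change was -0.08 (95% interval -0.24 to 0.076, adjusted p = 0.404). *Gclm* stood at 58.7 and 67.9 FPKM in Control and at 70.3 and 77.8 FPKM with G-CSF. The Control libraries lay further apart than Control replicate 2 lay from G-CSF replicate 1, and the log2 fold change of 0.23 did not pass (95% interval 0.032 to 0.43, adjusted p = 0.0882). Without Control replicate 2 *Gclm* passed (log2 fold change 0.33, adjusted p = 0.0324). The level of *Gclm* was 3.74 and 4.16 times that of *Gclc* in Control and 4.76 and 5.03 times with G-CSF. Of the *Gclm* stretches, 2.8% occur in another gene, mainly *Ppia*, and 3.5% occur on the opposite strand of another gene, which matters if strand was not used in the counting.

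*Gss* encodes glutathione synthetase, which adds glycine in the last step. Its FPKM was 6.59 and 7.97 in Control, against 7.5 and 7.66 with G-CSF. The G-CSF values lay between the Control values, and the log2 fold change of 0.06 did not pass (95% interval -0.20 to 0.33, adjusted p = 0.706). Of the *Gss* stretches, 7.8% occur on the opposite strand of another gene. With limma 0 of the 3 genes of synthesis passed (1, *Gclm*, at an unadjusted p under 0.05, and the same gene with voom and, at an adjusted p of 0.00643, with the replicate block).

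*Gsr* encodes glutathione reductase, which returns oxidized glutathione to the reduced form. Its FPKM was 188 and 192 in Control, against 160.3 and 170.2 with G-CSF. Both G-CSF libraries were below both Control libraries, and *Gsr* fell by 0.20 on the log2 scale (95% interval -0.32 to -0.09, adjusted p = 0.0264), the smallest of the 3 changes that passed. The adjusted p was 0.0685 without Control replicate 1, 0.093 without Control replicate 2, 0.116 without G-CSF replicate 1 and 0.0595 without a filter on low values. *Gpx1* encodes the cytosolic glutathione peroxidase, which spends glutathione on peroxides. It stood at 571 and 585 FPKM in Control and at 556 and 589 FPKM with G-CSF, and the G-CSF values enclosed the Control values. Its log2 fold change of -0.013 (95% interval -0.13 to 0.11, adjusted p = 0.874) changed sign when Control replicate 2 or G-CSF replicate 1 was left out.

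The levels of the 10 genes ranged from 1.17 to 589 FPKM, and their order was nearly the same in all libraries. *Gpx1* was the highest and *Gsr* the second in each library. *Lap3*, *Gclc* and *Gss* held the fifth to the seventh rank in each. *Dpep2* was above *Gclm* in both Control libraries, and below it in both G-CSF libraries. *Ggt1* was the lowest of the 10 genes in both Control libraries and the eighth in both G-CSF libraries, above *Chac2* and *Ggt5*. Among neighbours in this order, the ranges over the libraries of a group overlapped only for *Chac2* and *Ggt5* with G-CSF, where the lower value of *Chac2* (3.34 FPKM) met the higher of *Ggt5* (3.35 FPKM). *Gpx1* was 490 and 455 times as high as *Ggt1* in Control and 124 and 118 times with G-CSF. *Ggt1* therefore remained at a low level with G-CSF, at 3.65 times a small starting value.

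**Figure D2:**
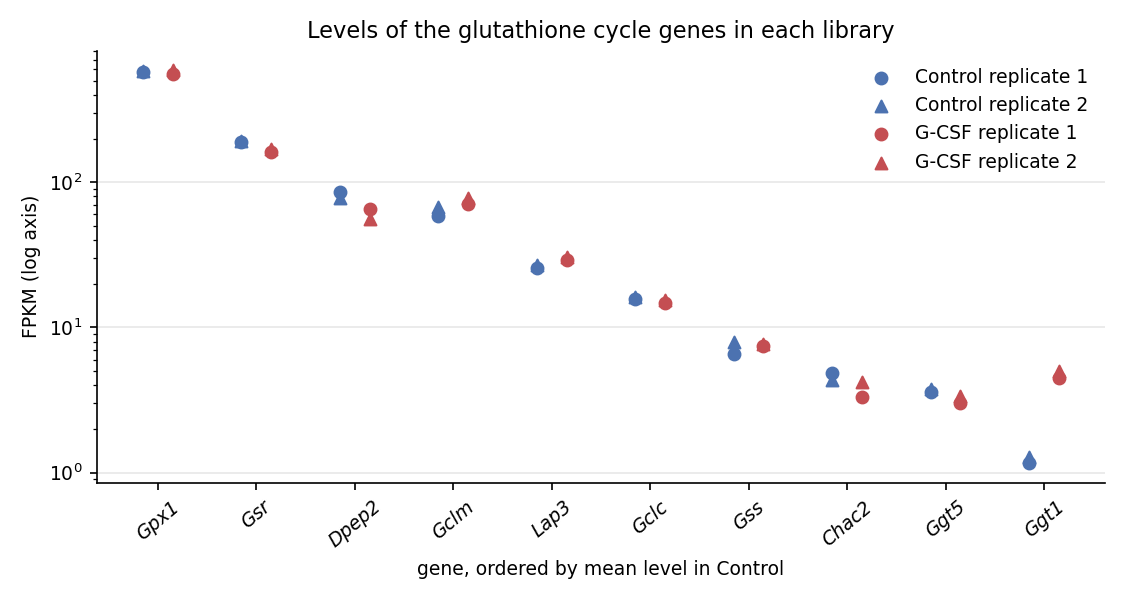
FPKM of each gene in each library on a log axis, with the genes ordered by their mean in Control, circles for replicate 1 and triangles for replicate 2. *Gpx1* lies at 556 to 589 FPKM in all libraries, and *Ggt1* is the gene with a wide gap between the groups (1.17 and 1.29 against 4.48 and 5.01 FPKM).

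The wider pathway was followed with 128 further genes in lists written from general knowledge, of which 90 were tested. With G-CSF 11 of them rose and 16 fell, 27 in all, beside 24.0% of all genes tested, and none had a fold change over 2. The median log2 fold change was -0.017. The number that passed was 16 without a filter on low values, 17 without Control replicate 2 and 15 without G-CSF replicate 1, and 11 of the 27 passed whichever library was left out. Among the other enzymes of breakdown, 2 of 8 tested fell and 0 rose (1 at an unadjusted p under 0.05). *Anpep*, a surface aminopeptidase that also splits cysteinylglycine, had 26.0 and 29.4 FPKM in Control and 17.9 and 19.8 FPKM with G-CSF, and fell by 0.55 on the log2 scale (adjusted p = 0.008). *Cndp2*, a cytosolic dipeptidase for cysteinylglycine, had 161 and 157 FPKM in Control and 122 and 135 FPKM with G-CSF, and fell by 0.31 (adjusted p = 0.0139). Both passed whichever library was left out.

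The supply of the amino acids and of NADPH was mixed. In the list for cysteine and glycine supply, 3 of 8 tested genes rose and 1 fell. Genes that passed made up 50% of those tested here and 37.5% in the NADPH list, beside 24.0% of all genes tested. The serine hydroxymethyltransferases *Shmt2* and *Shmt1* make glycine from serine, and both rose, by 0.63 (adjusted p = 0.00146) and by 0.57 (adjusted p = 0.0145) as log2 fold changes. *Shmt2* went from 46.4 FPKM in both Control libraries to 71.0 and 73.3 FPKM with G-CSF. The neutral amino acid transporter *Slc1a5* rose by 0.23 (adjusted p = 0.0202). *Slc7a11*, the light chain of the cystine and glutamate exchanger that brings cystine into the cell, had 27.7 and 30.7 FPKM in Control and 20.8 and 24.4 FPKM with G-CSF, and fell by 0.37 on the log2 scale (adjusted p = 0.0312). Of NADPH supply, 3 of 8 tested genes rose and 0 fell (0 also at an unadjusted p under 0.05): mitochondrial *Idh2* by 0.42 (adjusted p = 0.00402), *G6pdx* of the pentose phosphate pathway by 0.24 (adjusted p = 0.0107) and the malic enzyme *Me2* by 0.21 (adjusted p = 0.0371). *Shmt1*, *Shmt2*, *Idh2* and *G6pdx* passed whichever library was left out. *G6pdx* shares 1.6% of its stretches with other genes on the same strand, mainly *G6pd2*, and 9.0% on the opposite strand. *Slc1a5* did not pass without Control replicate 1 (adjusted p = 0.0865) or G-CSF replicate 1 (0.0848), *Slc7a11* did not without Control replicate 2 (0.101) or G-CSF replicate 1 (0.095), and *Me2* did not without Control replicate 1 or G-CSF replicate 2 (0.144 each) or Control replicate 2 (0.0732). The list for cysteine and glycine supply had 2 genes that passed without G-CSF replicate 1.

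Among the S-transferases, which couple glutathione to other molecules, 1 of 16 tested genes rose and 4 fell. That is 31.2% of those tested, beside 24.0% of all genes tested. *Hpgds*, which makes prostaglandin D2, fell by 0.72 on the log2 scale (adjusted p = 0.0136), from 4.68 and 5.54 to 2.88 and 3.23 FPKM. *Mgst1* fell by 0.27 (adjusted p = 0.00889), *Gstm2* fell by 0.45 (adjusted p = 0.0296), *Gstm1* (named after its values were seen) fell by 0.28 (adjusted p = 0.0355) and *Mgst2* rose by 0.25 (adjusted p = 0.0166). *Hpgds* and *Mgst1* passed whichever library was left out, *Gstm2* did not without Control replicate 2 (adjusted p = 0.113) or G-CSF replicate 2 (0.103), *Gstm1*, which shares 11.7% of its stretches with other genes, did not without Control replicate 1 (0.117) or G-CSF replicate 1 (0.11), and *Mgst2* did not without Control replicate 2 (0.0664) or G-CSF replicate 1 (0.0568). The number of these genes that passed was 3 without Control replicate 2, without G-CSF replicate 1 or without the filter. Of 17 tested genes of glutaredoxins, thioredoxins and peroxiredoxins, 1 rose and 3 fell (23.5%, near the 24.0% of all genes tested). Mitochondrial *Prdx3* rose by 0.28 (adjusted p = 0.0141), and *Txnip*, an inhibitor of thioredoxin (fell by 0.23, adjusted p = 0.0149), *Prdx5* (fell by 0.25, adjusted p = 0.0157) and the sulfiredoxin gene *Srxn1* (fell by 0.30, adjusted p = 0.0465) were lower. The number that passed was 2 without Control replicate 1, where *Prdx3* (adjusted p = 0.0586), *Txnip* (0.0666) and *Prdx5* (0.066) did not pass, and 1 without G-CSF replicate 1, where *Txnip* (0.0643), *Prdx5* (0.0766) and *Srxn1* (0.16) did not. *Srxn1* did not pass without Control replicate 2 either (0.162). Of the stretches of *Txnip* and *Prdx5*, 13.8% and 13.9% occur on the opposite strand of other genes. Of the other peroxidases, *Gpx3* and *Gpx4* were tested with limma and 0 of 2 passed (0 also at an unadjusted p under 0.05 and 0 with voom). *Gpx4* stood at 320 and 318 FPKM in Control and at 305 and 289 FPKM with G-CSF. Among 8 tested transporters of glutathione and its conjugates, 1 passed (12.5%, beside 24.0% of all genes tested). This was the mitochondrial carrier *Slc25a39*, which rose by 0.17 (adjusted p = 0.0489, and 0.0836 without the filter). Its log2 fold change was 0.126 to 0.21 with 1 library left out. With upper-quartile or median-ratio scaling, 0 of the 8 passed.

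In the list of NRF2, its regulators and its targets, 7 of 15 tested genes fell and 0 rose (1 at an unadjusted p under 0.05), beside 11.4% of all genes tested that fell. The median log2 fold change of the list was -0.20. *Nfe2l2*, which encodes NRF2, had 131 and 126 FPKM in Control and 109 and 114 FPKM with G-CSF, and fell by 0.20 on the log2 scale (adjusted p = 0.0271). *Maff*, a small MAF partner of NRF2, fell by 0.54 (adjusted p = 0.0116), and *Slc7a11* and *Gsr*, described above, were the other 2 of the 4 smallest p. The ligase genes *Gclc* and *Gclm*, which belong to the same list, did not pass. Neither did *Hmox1* (log2 fold change -0.026, adjusted p = 0.802), *Txnrd1* (-0.011, 0.934) or *Nqo1* (-0.42, 0.181). The list mixes regulators with targets, and the 7 that fell include the regulators *Nfe2l2*, *Maff* and *Bach1*. *Bach1* had a log2 fold change of -0.27 (adjusted p = 0.032, and 0.0673 without the filter). *Slc7a11*, *Gsr* and *Srxn1*, also among the 7, were already counted above. The count depended on the libraries: 3 genes fell without Control replicate 1, 2 fell and 1 rose without Control replicate 2, 1 fell without G-CSF replicate 1, and 8 fell without G-CSF replicate 2. Without the filter on low values 1 gene fell. *Maff* passed in each of these fits, and *Nfe2l2* did not without Control replicate 1 (adjusted p = 0.118), G-CSF replicate 1 (0.112) or the filter (0.0594).

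Gamma-glutamyltransferase and dipeptidase also serve the cysteinyl leukotrienes. Of 10 tested genes of this list 2 rose, *Ggt1* and *Lta4h*, and 3 fell, *Alox5*, *Dpep2* and *Alox5ap*. That is 50% of those tested, beside 24.0% of all genes tested, but *Ggt1* and *Dpep2* were already counted among the glutathione cycle genes. *Alox5* encodes 5-lipoxygenase, the first enzyme of leukotriene synthesis, and stood at 98.5 and 96.1 FPKM in Control and at 72.7 and 72.5 FPKM with G-CSF. It fell by 0.42 on the log2 scale (adjusted p = 0.00345) and passed whichever library was left out. *Alox5ap*, its activating protein, fell by 0.22 (adjusted p = 0.0251), and did not pass without Control replicate 1 (0.072), Control replicate 2 (0.0746), G-CSF replicate 1 (0.122) or the filter (0.0649). *Lta4h*, which turns leukotriene A4 into leukotriene B4, rose by 0.23 (adjusted p = 0.0235), and did not pass without the filter (0.0592). Its log2 fold change was 0.174 to 0.284 with 1 library left out. *Ltc4s*, the enzyme that joins leukotriene A4 to glutathione and so makes the substrate of *Ggt1* and *Ggt5*, had 17.1 and 16.0 FPKM in Control and 15.2 and 10.9 FPKM with G-CSF, and was not called, with a log2 fold change of -0.35 (95% interval -0.71 to 0.0011, adjusted p = 0.13). The value was -0.59 without G-CSF replicate 1, where *Ltc4s* passed (adjusted p = 0.0163), and -0.12 without G-CSF replicate 2 (0.413). *Ltc4s* and *Alox5ap* were named after their values were seen. The number of genes of this list that passed was 2 without the filter or without Control replicate 1 and 3 without Control replicate 2.

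The glutamate that gamma-glutamyltransferase releases can be taken up, metabolized or sensed. Of 8 tested genes for these steps, the mitochondrial aspartate aminotransferase gene *Got2* rose, with a log2 fold change of 0.28 (adjusted p = 0.00834), although 12.2% of its stretches are shared with other genes on the same strand, mainly *Got2-ps1*, and 16.8% on the opposite strand. It passed whichever library was left out. The other 7 did not pass, among them *Glul*, glutamine synthetase (log2 fold change -0.016, 95% interval -0.19 to 0.16), which was singled out after its values were seen. In this list 12.5% of the tested genes passed, beside 24.0% of all genes tested. The receptor genes *Grm2* and *Grm3* were listed at 0 in every library, and *Grm6* had at most 0.217 FPKM, in Control replicate 1, about 12 estimated reads.

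**Figure D3:**
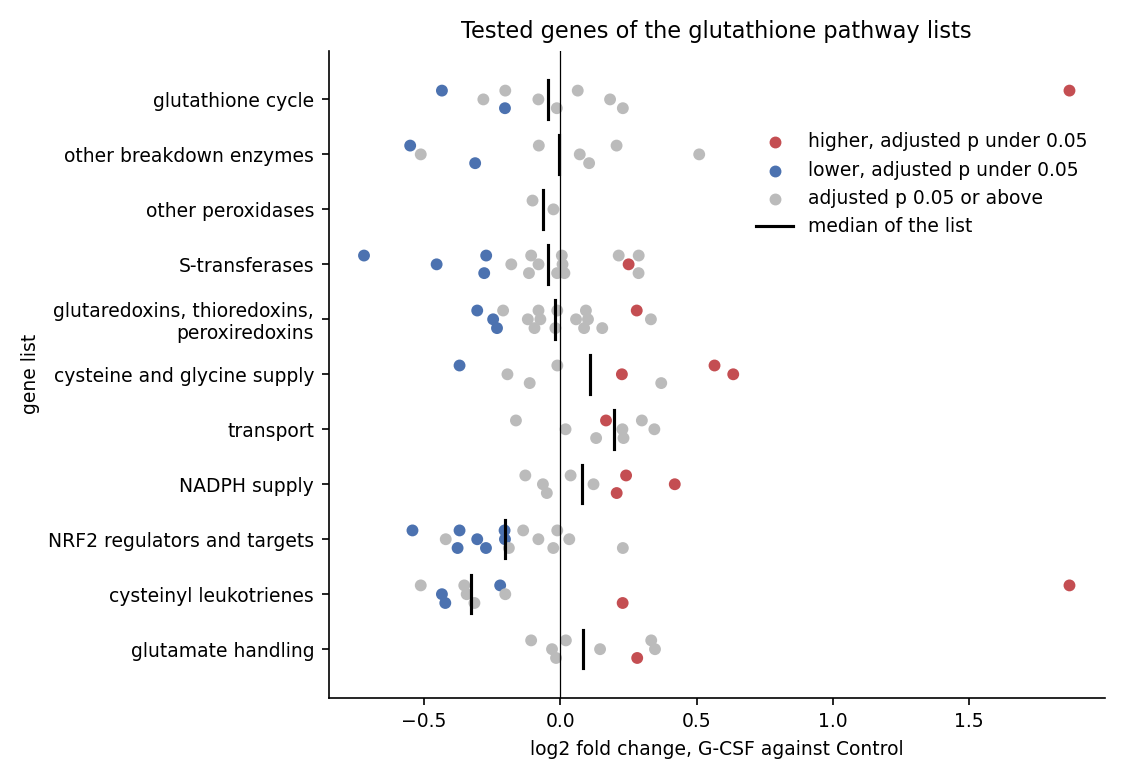
Log2 fold change between G-CSF and Control of every tested gene in the lists, with red and blue for adjusted p under 0.05 and black bars for list medians. Each gene has 1 point in each list that holds it, so some genes, *Ggt1* among them, are drawn more than once. *Ggt1* stands apart at 1.87, the NRF2 list has 7 blue points and no red, and the NADPH list has 3 red points and no blue.

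The 5 genes with the profile nearest to that of *Ggt1* over the 4 libraries, by Euclidean distance between log2(FPKM + 0.1) values centred on the mean of each gene, were *Muc13*, *Mcam*, *Gm5483*, *Adgrg7* and *Stfa2l1*. The distances were 0.14 for *Muc13*, which encodes a transmembrane mucin, 0.264 for *Mcam*, a cell adhesion molecule, 0.295 for *Gm5483*, 0.349 for *Adgrg7*, an adhesion G protein-coupled receptor, and 0.365 for *Stfa2l1*, of the stefin A family. *Muc13* had 2.19 and 2.50 FPKM in Control and 9.28 and 9.25 FPKM with G-CSF. These are distances over 4 libraries only and describe the pattern. Their values may hold reads of other genes, since 6.9% of the 75-base stretches of *Gm5483* and 7.8% of those of *Stfa2l1* occur elsewhere.

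Markers of other cell types and stages moved with the groups as well. Their counts stand beside 12.6% of all genes tested that rose and 11.4% that fell. A few genes carry some of the sums. In Control replicate 1 *S100a8* had 35613, *S100a9* 31959, *Cd74* 2016 and *Ly6c2* 1105 FPKM, in the neutrophil, dendritic cell and monocyte lists. Of these, *S100a9* and *Cd74* fell, and *S100a8* (adjusted p = 0.0843) and *Ly6c2* (0.146) did not pass. Of the markers of neutrophil precursors, 5 of 5 tested rose (the primary granule genes *Mpo*, *Elane*, *Prtn3* and *Ctsg*, and *Ms4a3*, a membrane protein of granulocyte and monocyte progenitors), and their FPKM summed to 838.4 and 965 in Control and to 2111 and 2246 with G-CSF. All 5 passed whichever library was left out. The 10 neutrophil markers measured summed to 66770 and 77150 FPKM in Control and to 51580 and 51700 FPKM with G-CSF, and 8 of them fell (5 without Control replicate 1, 4 without the filter). The dendritic cell list summed to 2747 and 3207 FPKM in Control and to 1443 and 1794 FPKM with G-CSF, with 4 of 7 tested genes lower. The macrophage list summed to 193.5 and 225.4 FPKM in Control and to 138.3 and 160.9 FPKM with G-CSF, with 5 of 8 lower, but 0 without G-CSF replicate 1 and 0 without the filter. Mast cell and basophil markers (5 of 7 lower) summed to 140.4 and 141.5 FPKM in Control and to 88.0 and 97.3 FPKM with G-CSF, eosinophil markers (2 of 5 lower) to 379.1 and 517.6 against 287.8 and 322.6 FPKM, and monocyte markers (2 of 7 lower) to 1456 and 1512 against 1326 and 1398 FPKM. Without G-CSF replicate 1 or Control replicate 2, 0 of the monocyte markers were lower, and 1 was without Control replicate 1, without G-CSF replicate 2 or without the filter. Of the eosinophil markers 4 were lower without Control replicate 1 and 0 without the filter. Lymphoid markers were low, with sums of 4.894 and 4.603 FPKM in Control and of 2.579 and 2.142 FPKM with G-CSF and with *Ncr1* listed at 0. Of 4 tested 3 fell, but 0 without Control replicate 1 or without the filter, and 1 without Control replicate 2 or G-CSF replicate 2. The myeloid genes *Itgam* and *Ptprc* fell by 0.35 and 0.37 on the log2 scale (adjusted p = 0.00569 and 0.00571), and *Spi1* had a log2 fold change of -0.18 (adjusted p = 0.0822). Of these 3 genes, 2 or 3 were lower whichever library was left out. Erythroid markers summed to at most 1.821 FPKM. The part of these markers in the rise of *Ggt1* and in the falls of *Dpep2* and *Gsr* was not tested.

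**Figure D4:**
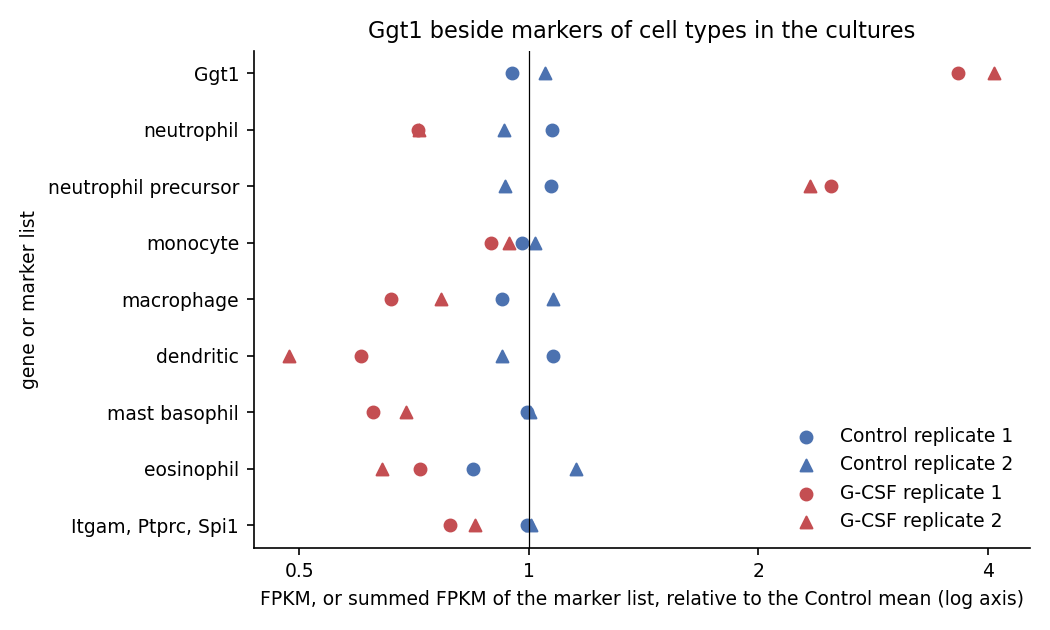
FPKM of *Ggt1* and summed FPKM of 8 marker lists in each library, relative to the mean of the Control libraries, on a log axis. The neutrophil, dendritic and monocyte sums are carried mainly by their highest genes. *Ggt1* and the list of neutrophil precursors lie to the right of the Control libraries with G-CSF, and the other 7 lists lie to the left.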

How the data were processed

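Libraries were prepared with a stranded mRNA kit and read over 75 bases from a single end. The authors deposited 1 table per library with an FPKM value for each gene; the unit is inferred from the tools and the values. Per the labels, the submitters' processing notes name TopHat2 2.0.13, Bowtie2 2.2.3, SAMtools 0.1.19, Cufflinks 2.2.1 and the build mm10, with no roles; the annotation and the use of strand are not given in the sources used here. FPKM already carries the authors' scaling by depth and length. The study calls the replicates biological. Whether they came from separate animals is not given in the sources used here, so p-values measure the spread between these libraries.

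Reads were estimated as FPKM × length × depth. Lengths came from GENCODE M21 (GRCm38) for 23959 genes, less 210 bases, and depth from 1970 low values. The depth and the 210 bases were chosen to put the largest share of these values within 0.05 reads of a whole number (66.4%). The 10.0% by chance holds for settings fixed in advance, so it does not test this choice. Tested genes reached 10 estimated reads in 2 of the libraries and 15 over all of them (limma 3.58.1, lmFit and eBayes with trend, two-sided, no block), with a pseudocount of 0.1 FPKM, which understates changes of low genes. Intervals are limma's 95% intervals. Shared reads were judged by 75-base windows of transcripts. The steps were run on simulated counts, drawn independently and with the same dispersion for all genes. This checks the code and does not show how the tests behave on these libraries. The alternatives tried were scaling by the upper quartile or by median ratios, pseudocounts of 1 and 0.01 FPKM, no filter and a stricter filter, voom, the replicate block and leaving out 1 library at a time, where a lone library is assumed to vary like the other group. The genes and lists were chosen with earlier results of these data known. Named genes were the 10 members, up to 4 genes per list by p among those that passed, and the 5 profiles nearest to *Ggt1*. Further genes were named outside this rule, after their values were seen, and markers come from their own lists. Examples of such further genes are *Ggt6*, *Ggt7*, *Gpx3*, *Gpx4*, *Grm2*, *Grm3*, *Grm6*, *Bach1*, *Hmox1*, *Txnrd1* and *Nqo1*. R 4.3.3 and python 3.11.15 were used.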

Additional observations from a re-analysis of the deposited data

How the results depend on the processing

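Of the 10 genes, 3 passed in the comparison as reported, and also with upper-quartile or median-ratio scaling, pseudocounts of 1 and 0.01 FPKM and the stricter filter. Without a filter on low values 1 passed (*Ggt1*), with voom 5 and with the replicate block 5, where *Gclm* (adjusted p = 0.0306 and 0.00643) and *Lap3* (0.0377 and 0.0315) passed too. Leaving out 1 library at a time gave 1 to 3. Of the 128 further pathway genes, 27 passed as reported, 16 without the filter, which tests more genes, 34 with the replicate block, and 15 to 26 with 1 library left out. *Ggt1* passed in every alternative, with a log2 fold change between 1.37 (pseudocount of 1 FPKM) and 1.96 (voom). The sign of *Gpx1* changed with voom (0.0079), without Control replicate 2 (0.0045) and without G-CSF replicate 1 (0.029), and that of *Gss* without Control replicate 1 (-0.071), within ranges of -0.054 to 0.029 and -0.071 to 0.20 over the left-out libraries, none of them called; the cause was not tested. Deviations from the group means were correlated between libraries that share a replicate number (r = 0.246 across genes), but the labels name nothing that the numbers share, so this is a hint from the data only; the replicate block raised the calls over all genes from 2875 to 4006. Among the 10 genes, *Ggt1* had the fewest estimated reads in a library (30).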

Other observations

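The coding genes around *Ggt1* on chromosome 10 were read out after the other values were seen. *Lrrc75b*, the nearest on the upstream side, had 0.458 and 0.401 FPKM in Control and 0.621 and 0.772 FPKM with G-CSF, which was not called (log2 fold change 0.585, standard error 0.234, adjusted p = 0.116). *Snrpd3*, a core protein of spliceosomal particles and the next gene upstream, rose from 177 and 183 FPKM to 233 FPKM in both G-CSF libraries (log2 fold change 0.375, standard error 0.042, adjusted p = 0.00451). *Gucd1*, further upstream, had a log2 fold change of -0.05 (adjusted p = 0.634). On the other side, after *Ggt5*, *Cabin1* had 21.01 and 19.7 FPKM in Control and 18.3 and 17.6 FPKM with G-CSF (log2 fold change -0.178, adjusted p = 0.0907), and *Susd2* was below the filter, with at most 0.132 FPKM. Of the neighbours that were tested, with *Ggt5* included and *Susd2* left out, 1 passed (*Snrpd3*), beside 24.0% of all genes tested.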
